A study of Mus musculus with 6 samples.

Results

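Epithelial marker cells were rare in these mouse aortic preparations: 122 of 59413 cells that passed the filters, in 6 samples. A passing cell had at least 300 genes and less than 20% of its counts from mitochondrial genes. Cells were selected on measured transcripts of 4 genes: a cell was taken as an epithelial marker cell when it held at least 2 transcripts of Epcam and Cdh1 together and none of Ptprc or Pecam1. Epcam (chromosome 17, 87635979 to 87651129, plus strand, mm10) encodes an adhesion molecule of epithelial surfaces. Cdh1 (chromosome 8, 106603351 to 106670246, plus strand) encodes E-cadherin of the adherens junction. Ptprc and Pecam1 mark blood and endothelial cells and served to leave those out.

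Single-cell RNA was counted by unique molecular identifier (UMI) in aortic cells from C57B/6J mice aged 18 weeks, 3 samples on a high-fat diet and 3 on a normal (control) diet. The labels name the tissue only as aorta and give no sex, length of diet, pooling or animal number, so p-values measure the spread between these samples. Each sample joined the cells of 2 capture wells, as the barcode suffixes show. Samples held 6623 to 18138 cells and 41388034 to 83886418 UMIs, with median depths of 4019 to 6000 UMIs per cell.

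The normal aortic wall is made of endothelium, smooth muscle and fibroblasts and has no epithelial layer. The airway lining, by contrast, holds secretory club cells, which release secretoglobins such as Scgb1a1, basal cells, which carry keratin 5, keratin 15 and the transcription factor Trp63, and ciliated cells. Stratified squamous linings, as in the oesophagus, carry keratins 4 and 13 above a basal layer of keratin 5 and keratin 14.

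Some libraries stood apart before any comparison. Control 3 held only 2 epithelial marker cells, neither with 2 further epithelial genes of a list of 20. In well 1 of high-fat diet 2, 99.96% of all other passing cells held a transcript of Scgb1a1, although the well held only 7 epithelial marker cells. Of 60528 distinct barcodes, 2051 occurred in more than 1 sample, and no barcode was shared between epithelial marker cells. Epithelial marker cells were deep, with a median of 9003 UMIs and 2664 genes, against 4372 UMIs and 1693 genes in the other passing cells. Their median mitochondrial share was 7.77%, against 5.33% in the other cells. None of the 122 had a doublet score above 0.25.

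The label of epithelium held for most of them but not for all. A list of 20 epithelial junction and regulator genes that the selection did not use (claudins, Elf3, Ehf, Grhl2, Esrp1 and others) gave at least 2 genes in 101 of the 122 cells, or 82.8%, against 1.18% of the other passing cells. The median was 6 of the 20 genes. Epcam was found in 110 cells and Cdh1 in 86, with both in 74. Scgb1a1, the third marker named for these cells, was found in 110 of them, but also in 42.0% of the other cells, so it did not separate the cells by presence alone. After thinning every cell to 1000 UMIs it was found in 61.5% of the epithelial marker cells and 18.0% of the others.

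The threshold on Epcam and Cdh1 lay where the other epithelial genes became frequent. Just inside, 24 of 40 cells with exactly 2 UMIs had at least 2 of the 20 list genes, as did 23 of 26 cells with 3 UMIs and 54 of 56 with more. Just outside, among cells free of Ptprc and Pecam1 with exactly 1 UMI of Epcam or Cdh1, 47 of 235 had them. Cells with both Epcam and Cdh1 had them in 72 of 74 cases, against 21 of 36 with Epcam alone and 8 of 12 with Cdh1 alone. Median depth also rose, from 5347 UMIs in cells with 1 UMI of Epcam or Cdh1 to 6690 with 2, 8083 with 3 and 10581 with more. The part of depth in finding the list genes was not tested.

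The genes that stood highest over the other passing cells were epithelial regulators, junction proteins, keratins and airway genes. These ratios describe the cells selected and carry no test, because selection used this contrast. Levels are CPM, counts of a gene summed over cells and scaled by all UMIs of those cells. Each transcript gives a single tag at its 3′ end, so levels were not divided by gene length. The transcription factors of the foregut and lung lining were prominent. Foxa1 stood at 136 CPM in epithelial marker cells and 0.603 CPM in the others, a log2 ratio of 7.81. Nkx2-1, a regulator of lung and thyroid development, stood at 117 CPM against 0.564 CPM (7.69), and Sox2, which marks the conducting airway and oesophagus, at 203 CPM against 1.15 CPM (7.46). They were found in 71, 63 and 84 of the 122 cells. Grhl2, which maintains epithelial junction genes, had a log2 ratio of 7.81, and the transcription factor Sox21 had 7.73.

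Junction, adhesion and surface genes formed a further set of leaders. The tight junction claudin Cldn8 had the highest log2 ratio, 8.04 (28.2 CPM against 0.107 CPM). The surface protease gene Tmprss2 had 7.88, the epithelial splicing regulator Esrp1 7.69 and the large cadherin Fat2 7.72. Col17a1, the collagen of hemidesmosomes that anchors basal cells, stood at 82.3 CPM against 0.506 CPM (7.35). The integrin adaptor Fermt1 had 7.25, the apical sorting protein gene Mal2 7.24, the surface glycoprotein gene Cdcp1 7.39 and the actin-binding Pof1b 7.32. Keratins of basal layers were abundant, with Krt5 at 513 CPM against 2.76 CPM, Krt17 at 112 CPM against 0.619 CPM and Krt15 at 1212 CPM against 6.87 CPM.

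Genes of transport, defence and detoxification completed the leading genes described. The water channels Aqp4 and Aqp3 had log2 ratios of 7.46 and 7.18, the γ-aminobutyric acid receptor subunit gene Gabrp 7.73 and the cholecystokinin receptor gene Cckar 7.27. The sulfotransferase gene Sult1d1 had 7.29 (588 CPM against 3.75 CPM) and the glucuronosyltransferase gene Ugt2b34 had 7.75. Defb1, an antimicrobial defensin, had 7.39, the interferon-inducible gene Ifi202b 7.88, the lipid-binding Sec14l3 7.22 and the ubiquitin ligase gene Rnf186 7.21. Keratins, secretoglobins and Ifi202b belong to families of related copies, and how reads shared between copies were counted is not given in the sources used here. Of the 30 leading genes, none had a UMI in the 2 cells of control 3, where a count of 0 allows up to 122 CPM.

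Secretory airway products were the most abundant epithelial transcripts. Of the 14 genes of the club and secretory list, each was detected, and 111 of 122 cells (91.0%) had at least 2, but so had 39.2% of the other passing cells. Scgb1a1 (chromosome 19, 9083636 to 9087958, minus strand) stood at 46259, 74278 and 38941 CPM in high-fat diet samples 1, 2 and 3, and at 16855, 40368 and 0 CPM in control samples 1, 2 and 3. High-fat diet 2 was highest, and control 2 lay just above high-fat diet 3, so the groups overlapped. Summed levels weigh deep cells most. In high-fat diet 2, a single cell held 66300 of the 428555 UMIs, with Scgb1a1 at 223424 CPM, and another held 37230, with Scgb1a1 at 189739 CPM. Cyp2f2, a cytochrome P450 of club cells, was found in 99 cells, at 3852 CPM against 29.7 CPM in the others, and in 78.7% of them against 1.15% of the others after thinning (81.1% against 4.36% before). Cbr2, a carbonyl reductase of lung, was found in 105 cells and Gsto1, a glutathione transferase, in 101.

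The 122 cells fell into 5 clusters, which were numbered by their leading genes. The clusters were drawn from the same genes, so their differences are given without a test. Cluster 1, with 33 cells, was club-like: Scgb1a1 stood at 136624 CPM, against 1026 CPM in the rest of the epithelial marker cells. Scgb3a1 (18350 CPM against 152 CPM) and Scgb3a2 (20887 CPM against 765 CPM), secretoglobins of the airway, stood with it, as did Bpifb1, Muc5b, Ltf, Reg3g and Pigr. Muc5b encodes the gel-forming airway mucin, found in 30 of the 33 cells, Ltf encodes lactoferrin and Pigr the receptor that carries antibodies across epithelium. Scgb1a1 took a median of 8.33% of all UMIs of such a cell, with a range of 0.669% to 33.9%. Surfactant protein genes were partly present, with Sftpa1 in 16 of the 33 cells and Sftpd at 394 CPM. Sftpc had no UMI in this cluster.

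Clusters 2 and 3 combined basal keratins with airway secretory genes and were left unnamed. Cluster 2 (33 cells) held Krt15 at 2016 CPM, the water channel gene Aqp3 at 1253 CPM, Krt5 at 453 CPM and Trp63 at 235 CPM, together with Cyp2f2 at 6489 CPM and Bpifa1, an antimicrobial airway-surface protein, at 9846 CPM. Dapl1 (910 CPM) led it over the rest of the epithelial marker cells, followed by Per3, Aqp3, Tmem108 and Defb1. Scgb1a1 stood at 1207 CPM there, against 136624 CPM in cluster 1. Cluster 3 (30 cells) was mixed and held the same pairing in part of its cells, with summed levels of Krt15 at 1044 CPM, Krt5 at 396 CPM and Cyp2f2 at 3553 CPM. Krt15 was found in 19 of its 30 cells, against 32 of 33 in cluster 2. It also held 6 cells with ciliated genes, 4 with mesothelial genes and 1 with thyroid genes, as described below. Its leaders over the rest were AU040972, Rarres2, Clic3, Fhad1 and Igfbp6, and it also carried more fibroblast transcripts (Dcn at 1769 CPM, against 713 CPM in cluster 2). Of its 30 cells, 16 came from well 1 of control 1, and the part of well in these differences was not tested.

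Basal and secretory genes were found within single cells. Krt5 or Trp63 occurred together with at least 2 UMIs of Cyp2f2 in 68 of the 122 cells (55.7%). The counts were 15 of 33 in cluster 1, 27 of 33 in cluster 2, 19 of 30 in cluster 3, 7 of 10 in cluster 4 and 0 of 16 in cluster 5. Cyp2f2 was also present in 4.36% of other passing cells, and the part of free RNA in the count was not tested.

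Cluster 4 (10 cells) was basal and squamous-like and had another keratin set. Krt13 stood at 5972 CPM, against 6.72 CPM in the rest, Krt4 at 2268 CPM, Krt14 at 2146 CPM and Lgals7, a galectin of stratified epithelium, at 8085 CPM. All 10 cells held Krt5, Krt13, Krt15 and Krt4. The metallothionein gene Mt4, typical of squamous lining, was found in 7 of them. Pitx1, a transcription factor of oral and hindlimb development, was found in 9, whereas Nkx2-1 was found in none, which with 10 cells allows a share of up to 30.0%. Of these cells 8 came from high-fat diet 2, 1 from control 1 and 1 from control 2, so the cluster rested mainly on a single sample. At least 3 of 6 cell cycle genes were found in 6 of the 10, against 15 of all 122.

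Cluster 5 (16 cells) went against the label of epithelium. None of its cells had 2 genes of the epithelial list, which allows a share of up to 18.8%. Its leaders were Jchain, the joining chain of secreted antibodies, at 76101 CPM, and Mzb1, Derl3, Cd79a and Cd79b, genes of antibody secretion and of the B cell receptor. In the order given, these genes were found in 13, 13, 9, 15 and 13 of the 16 cells. Jchain was uneven, from 0 to 247138 CPM in single cells. Epcam was found in 14 of the 16 cells at 208 CPM and Cdh1 in 2, so the selection rested on Epcam. Krt5, Krt15, Cyp2f2 and Nkx2-1 had no UMI in it. Both cells of control 3 lay in this cluster.

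**Figure D1:**
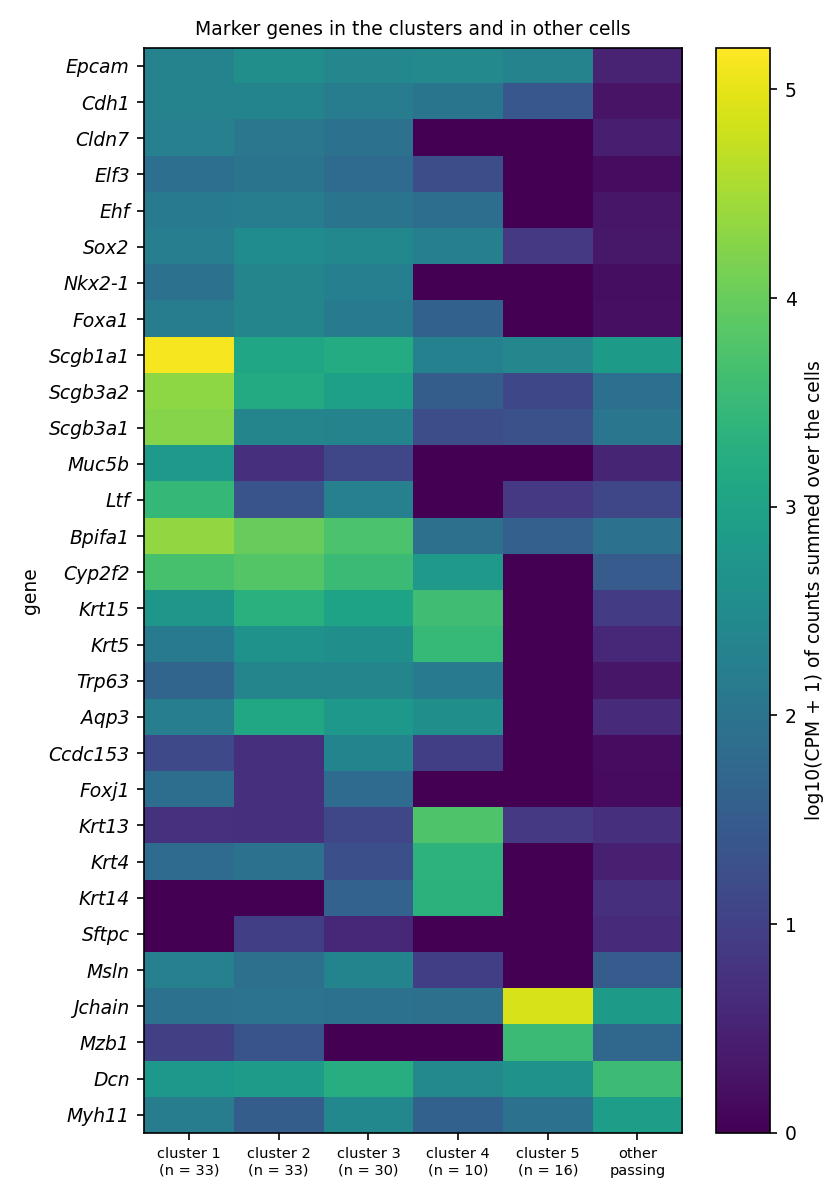
Levels of 30 genes, as log10(CPM + 1) of counts summed over the cells, in the 5 clusters of epithelial marker cells and in all other passing cells. Scgb1a1 is brightest in cluster 1, Krt13 in cluster 4 and Jchain in cluster 5, where Cyp2f2 and the keratins Krt15 and Krt5 are at 0.

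Ciliated cells were few among the epithelial marker cells. At least 3 of 9 ciliated genes, such as Foxj1, the master regulator of motile cilia, and Ccdc153, were found in 9 of the 122 cells, 6 of them in cluster 3 and 3 in cluster 1. By sample these were 1, 1 and 3 cells in high-fat diet 1, 2 and 3, and 3, 1 and 0 in control 1, 2 and 3. Foxj1 stood at 43.4 CPM in the epithelial marker cells and 0.447 CPM in the others.

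Genes of alveolar cells were partly present. At least 2 of 10 alveolar type 2 genes were found in 38 of the 122 cells (31.1%), against 1.77% of the other passing cells, with the surfactant protein genes Sftpd in 50 cells, Sftpa1 in 21 and Sftpb in 20. Sftpc, which defines alveolar type 2 cells, was found in 2 cells at 2.29 CPM, against 3.29 CPM in the other passing cells, and Lamp3 in none. At least 2 of 7 alveolar type 1 genes were found in 71 cells (58.2%, against 2.46% of the others), mainly the water channel gene Aqp5 in 83 and Emp2 in 74, whereas Ager was found in 3.

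Some genes that define other epithelia were scarce or absent, but several of the lists that hold them were not. The thymic regulators Foxn1 and Aire and the thymic proteasome gene Psmb11 had no UMI in the 122 cells, which allows a share of up to 2.46%. At least 2 of the 12 thymic list genes, which include Krt5 and Krt8, were found in 88 cells (72.1%, against 7.34% of the other passing cells). Parathyroid and parafollicular genes (Pth, Gcm2, Calca, Chga and the rest of a list of 8) were at 0, as were Alb, Ttr and Ins2. At least 2 of 10 mammary, salivary and skin gland genes, which include Ltf and Aqp5, were found in 42 cells (34.4%, against 0.214% of the others). At least 2 of 10 thyroid genes, which include Nkx2-1, were found in 9 cells (7.38%, against 0.0152%). At least 2 of 10 kidney tubule genes were found in 7 cells (5.74%, against 0.418%). A single cell, in control 2 and cluster 3, held 94 UMIs of thyroglobulin (Tg) with 11 of Pax8 and 13 of Slc5a5, a regulator and the iodide carrier of thyroid follicles. At least 3 of 5 mesothelial genes (Msln, Upk3b, Lrrn4, Wt1, Nkain4) were found in 4 cells, all in cluster 3, 2 from high-fat diet 1 and 2 from high-fat diet 3.

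Transcripts of the surrounding aortic cells were present at low levels. The 8 smooth muscle genes summed to 1267 to 2485 CPM in the epithelial marker cells of the high-fat diet samples and 1179 to 2748 CPM in those of the controls, against 7946 to 14695 CPM in other cells of the 6 samples. The 9 fibroblast genes summed to 2569 to 3514 CPM in epithelial marker cells of high-fat diet samples and 1506 to 5496 CPM in those of controls, against 7299 to 18610 CPM in other cells. Some of these transcripts were nearly universal, as Gsn was found in 98.4% of the epithelial marker cells and Acta2 in 89.3%. Pecam1 and Ptprc were at 0 by the rule.

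Every sample contributed, but unevenly. High-fat diet samples 1, 2 and 3 held 40, 30 and 10 epithelial marker cells, and control samples 1, 2 and 3 held 19, 21 and 2. As shares of passing cells these were 0.385%, 0.377% and 0.104% in high-fat diet samples 1, 2 and 3, and 0.290%, 0.127% and 0.0240% in control samples 1, 2 and 3. High-fat diet 1 and 2 were above each control, while high-fat diet 3 lay below control 1 and control 2, so the groups overlapped. The 95% Wilson intervals, which cover counting error only, ran from 0.283% to 0.524% in high-fat diet 1 and from 0.00658% to 0.0874% in control 3.

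The share averaged 0.289% ± 0.160 on the high-fat diet and 0.147% ± 0.134 on the control diet (SD, n = 3 each). The difference of 0.142 percentage points was within the spread between samples (exact two-sided permutation test, p = 0.3, where the smallest p of 3 against 3 is 0.1). For the cells that also held at least 2 genes of the epithelial list, the shares were 0.240% ± 0.163 and 0.129% ± 0.148, a difference of 0.111 percentage points (p = 0.4 by the same exact test, n = 3 each). Adjusted over these 2 tests by Benjamini-Hochberg, both exact permutation p-values were 0.4. These were 34, 27 and 5 cells in high-fat diet samples 1, 2 and 3, and 19, 16 and 0 cells in control samples 1, 2 and 3. Leaving out control 3 brought the difference in all epithelial marker cells to 0.0804 points and leaving out high-fat diet 1 to 0.0936 points (exact p = 0.6 each). Leaving out control 1 brought it to 0.213 points and leaving out high-fat diet 3 to 0.234 points, with exact permutation p = 0.3 and 0.2.

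**Figure D2:**
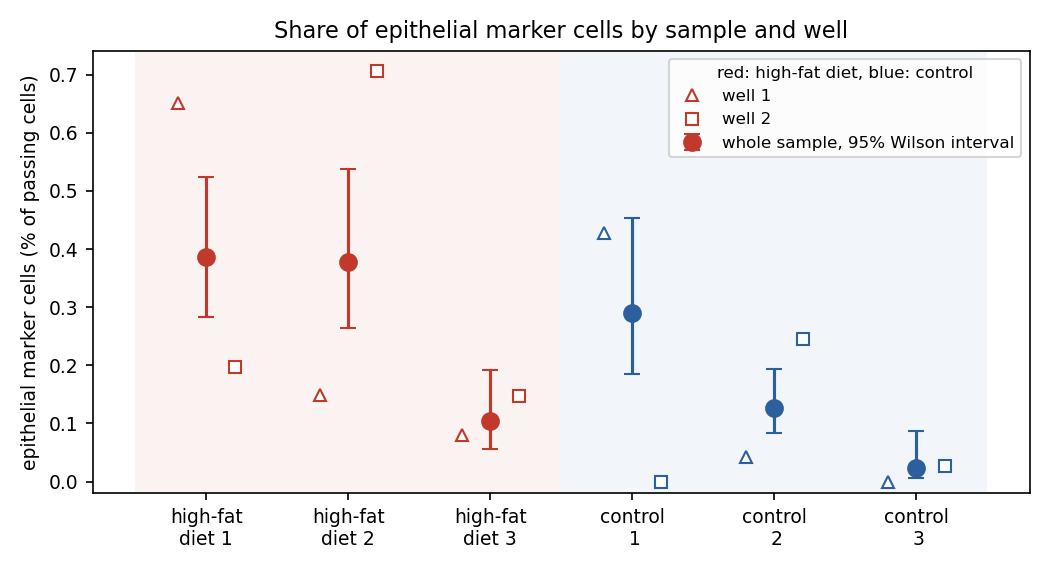
Epithelial marker cells as a percentage of passing cells, for each sample (filled points with 95% Wilson intervals) and each of its 2 wells (open symbols), high-fat diet in red and control in blue. The samples range from 0.104% to 0.385% on the high-fat diet and from 0.0240% to 0.290% on the control diet, and the wells of high-fat diet 2 lie at 0.149% and 0.706%.

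Wells of the same sample differed widely. High-fat diet 1 held 28 cells in well 1 (0.651%) and 12 in well 2 (0.197%), and high-fat diet 2 held 7 (0.149%) and 23 (0.706%). Control 1 held all of its 19 cells in well 1 (0.427%) and none of 2104 passing cells in well 2, which allows a share of up to 0.143%. Control 2 held 4 cells in well 1 (0.0415%) and 17 in well 2 (0.245%), while high-fat diet 3 held 5 in each. The intervals of both wells did not overlap in high-fat diet 1, high-fat diet 2, control 1 and control 2. Wells of a sample also differed in their other passing cells. In high-fat diet 2, cells with at least 2 UMIs of the smooth muscle gene Myh11 were 3685 of 4691 in well 1 and 313 of 3236 in well 2. In control 3, Jchain was found in 0.958% of the other passing cells of well 1 and in 49.2% of those of well 2. Whether wells of a sample came from a single suspension is not stated. The difference between diets was 0.137 points in well 1 alone and 0.260 points in well 2 alone (exact permutation p = 0.5 and 0.3).

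The clusters were spread over the samples in different ways. Club-like cluster 1 held 15, 9 and 3 cells in high-fat diet samples 1, 2 and 3, and 2, 4 and 0 in control samples 1, 2 and 3. Cluster 2 held 15, 9 and 0 cells in the high-fat diet samples and 0, 9 and 0 in the controls. Cluster 3 was drawn mostly from control 1, with 5, 3 and 3 cells in the high-fat diet samples and 16, 3 and 0 in the controls. Cluster 5 held 5, 1 and 4 cells in the high-fat diet samples and 0, 4 and 2 in the controls. The genes that define the clusters were not left out of the clustering, so their sizes were not compared between diets by a test.

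**Figure D3:**
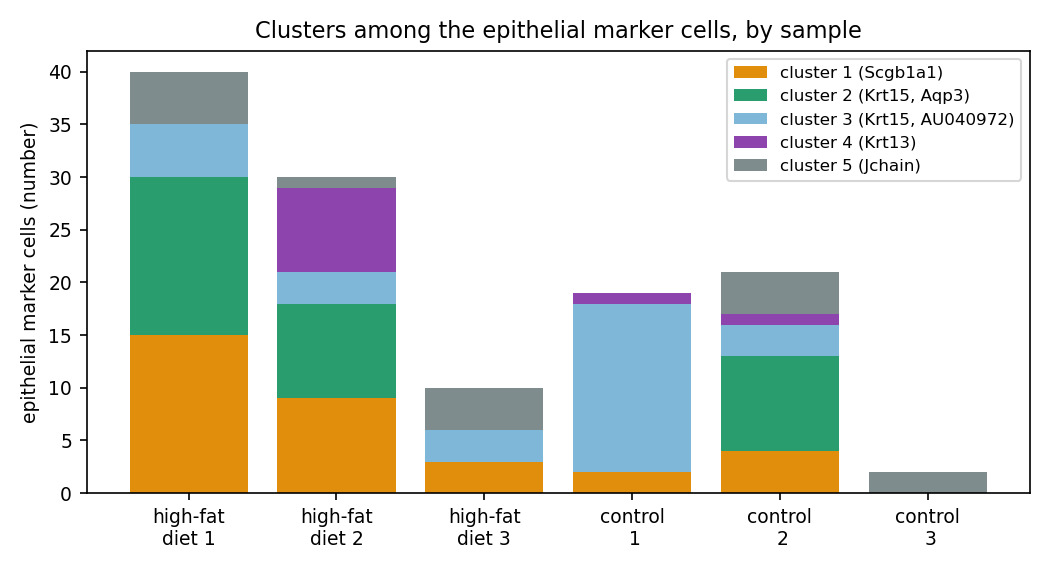
Number of epithelial marker cells of each cluster in each sample, high-fat diet samples left of controls, with bars stacked by cluster. Of 30 cells in cluster 3, 16 belong to control 1, and 8 of 10 in cluster 4 belong to high-fat diet 2.

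Secretory transcripts also occurred outside the epithelial marker cells, at levels that differed between wells. In the other passing cells Scgb1a1 stood at 603, 3070 and 155 CPM in high-fat diet samples 1, 2 and 3, and at 358, 117 and 2.40 CPM in control samples 1, 2 and 3. By well it ranged from 51.1 CPM to 4071 CPM on the high-fat diet and from 2.40 CPM to 453 CPM on the control diet. It was found in 84.2% of the other cells of high-fat diet 2 but in 0.899% of those of control 3. Over the 12 wells, Spearman's rho between this level and the number of epithelial marker cells was 0.828, and with the number of cluster 1 cells 0.889. The 12 wells come from 6 samples and whether wells of a sample share a suspension is not stated, so this is a description without a p.

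The signal was found across unrelated cell types. In high-fat diet 2, Scgb1a1 was found in 97.5% of cells with Myh11, a smooth muscle gene, in 81.5% of cells with Pdgfra, a fibroblast gene, and in 93.0% of cells with Pecam1, at median depths of 7057, 5053 and 6893 UMIs. In control 3 it was found in 1.00%, 1.91% and 0.759% of the same kinds of cells. For each 100 UMIs of Scgb1a1 there were 15.3 UMIs of Scgb3a2 in cluster 1 and 11.2 in the other passing cells. The part of this RNA in the secretory levels of epithelial marker cells was not tested.

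**Figure D4:**
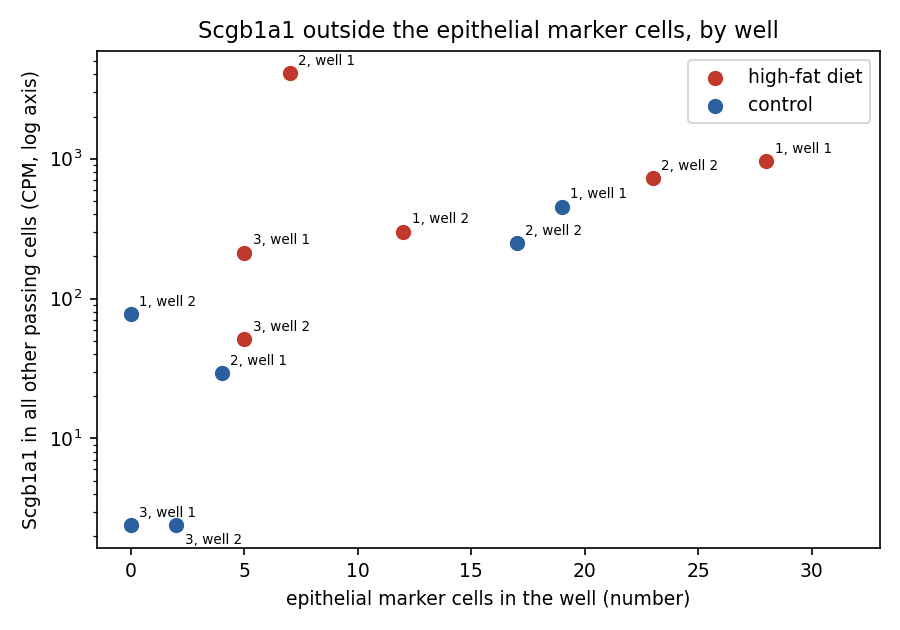
Level of Scgb1a1 (CPM, log axis) in all passing cells other than the epithelial marker cells, against the number of epithelial marker cells in the same well, for 12 wells, high-fat diet in red and control in blue (point labels give sample and well). Well 1 of high-fat diet 2 stands highest at 4071 CPM, and both wells of control 3 lie lowest at 2.40 CPM.

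Gene levels were compared between diets on counts summed per sample. Control 3, with 2 cells, was too small, so 3 high-fat diet sums stood against 2 control sums, each of 97893 to 428555 UMIs. Of 3562 genes tested, edgeR's quasi-likelihood test called 0 at a Benjamini-Hochberg adjusted p of 0.05 (0% of genes tested). At an unadjusted p under 0.05 there were 112 genes, 62 of them higher on the high-fat diet. DESeq2 on the same sums called 1 gene, Scgb3a1. For 741 of the 3562 genes (20.8%) the samples of the groups did not overlap.

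Scgb3a1, an airway secretoglobin, was therefore named after its values were seen. It stood at 7240, 11203 and 4556 CPM in high-fat diet samples 1, 2 and 3, and at 1781 and 1291 CPM in control samples 1 and 2. Each high-fat diet sample was above both controls. The edgeR log2 fold change was 2.35 (SE 0.45), with an unadjusted p of 0.00279 and an adjusted p of 0.990, while DESeq2 gave 2.38 with an adjusted p of 0.00398. Nearly all of it came from cluster 1, in which it stood at 16654, 23386 and 19945 CPM in the 15, 9 and 3 cells of high-fat diet samples 1, 2 and 3, and at 10397 and 5094 CPM in the 2 and 4 cells of control samples 1 and 2. For each 100 UMIs of Scgb1a1 there were 15.7, 15.1 and 11.7 UMIs of Scgb3a1 in the high-fat diet samples and 10.6 and 3.20 in controls 1 and 2. In the other passing cells the same ratio was 19.6, 16.2 and 6.42 in the high-fat diet samples and 9.88, 20.8 and 66.0 in controls 1, 2 and 3, where the groups overlapped. The share of cluster 1 among the epithelial marker cells moved with it and its part was not tested.

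No secretory gene, Scgb3a1 included, passed in edgeR on the 5 sums with its default filter on low counts. Scgb1a1 had a log2 fold change of 0.86 (SE 0.63) and Scgb3a2 0.86 (SE 0.57). Scgb3a2 stood at 9729, 10678 and 3667 CPM in high-fat diet samples 1, 2 and 3, and at 3800 and 4997 CPM in controls 1 and 2. High-fat diet 3 was below both controls. Muc5b stood at 373, 282 and 133 CPM in the high-fat diet samples and 68.2 and 70.7 CPM in the controls, a log2 fold change of 1.96 (SE 0.47, unadjusted p = 0.00203, edgeR adjusted p = 0.990), without overlap between groups. With no filter on low counts, edgeR called 14 genes, 8 higher and 6 lower on the high-fat diet. These included Muc5b (log2 fold change 2.02, adjusted p = 0.0210) and the trefoil factor gene Tff2 (4.88, adjusted p = 1.04e-07). Tff2 stood at 101, 243 and 71.5 CPM in the high-fat diet samples and at 8.52 and 0 CPM in controls 1 and 2. In control 2 a count of 0 allows up to 17.7 CPM. Of the 18 cells with Tff2, 14 lay in cluster 1. Bpifa1 stood at 18224, 6923 and 7621 CPM in the high-fat diet samples and 8065 and 15069 CPM in the controls, with overlap (log2 fold change -0.13). Cyp2f2 stood at 4552, 2996 and 1737 CPM in the high-fat diet samples and 4597 and 5286 CPM in the controls (log2 fold change -0.69, SE 0.38). After normalisation high-fat diet 1 lay above control 1, at 5024 against 4947 normalised CPM, so the groups overlapped. Of the 14 genes of the club and secretory list, 0 rose and 0 fell, 11 had a positive log2 fold change and the median was 0.38, beside 1724 of 3562 and -0.02 over all genes tested. The groups did not overlap for 2 of the 14, beside 741 of 3562 (20.8%) over all genes tested.

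Basal keratins differed widely among the high-fat diet samples. Krt15 stood at 942, 1580 and 174 CPM in high-fat diet samples 1, 2 and 3, and at 1406 and 1355 CPM in controls 1 and 2 (log2 fold change -0.58, SE 0.91). Krt5 stood at 230, 870 and 20.4 CPM in the high-fat diet samples and 631 and 401 CPM in the controls (-0.36, SE 1.31). High-fat diet 2 was highest for both genes and high-fat diet 3 lowest. Of 11 basal and squamous genes tested, 0 passed, 7 were positive and the median log2 fold change was 0.65, with Krt13 at 1612 CPM in high-fat diet 2 and at most 200.4 CPM elsewhere. Of 9 epithelial list genes tested, 3 were positive, with a median of -0.10. Epcam and Cdh1 had -0.22 (SE 0.34) and -0.35 (SE 0.35). The selection used both genes, so their levels here were bounded by it and are no test of diet.

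Lists of other cell types were read beside these, with 1724 of 3562 genes positive (median -0.02) over all genes tested. Of 31 lists, some whose tested genes all went in a single direction are given here, with 2 that did not. Of 9 ciliated genes tested, 2 were positive (median -0.81), and of 8 fibroblast genes 1 was (median -0.45), and 0 passed. All 6 mesothelial genes tested were positive (median 1.04), the keratins Krt8 (0.56) and Krt19 (0.03) among them, and 0 passed. Msln stood at 148, 127 and 631 normalised CPM in high-fat diet samples 1, 2 and 3, and at 36.7 and 167 normalised CPM in controls 1 and 2, with high-fat diet 3 highest. All 5 cell cycle genes tested were positive (median 1.06), and 0 passed. The cell cycle list summed to 165, 553 and 511 CPM in epithelial marker cells of high-fat diet samples 1, 2 and 3. In those of controls 1 and 2 it summed to 349 and 11.8 CPM, so the groups overlapped. All 4 skeletal muscle genes tested were negative (median -2.53). This list summed to 30.8, 497 and 51.1 CPM in epithelial marker cells of high-fat diet samples 1, 2 and 3, and to 2301, 395 and 0 CPM in those of controls 1, 2 and 3. In the other passing cells the same list summed to 36.2, 2118 and 278 CPM in the high-fat diet samples and 4720, 308 and 63.2 CPM in the controls, again highest in control 1. Its part in the gene differences was not tested.

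**Figure D5:**
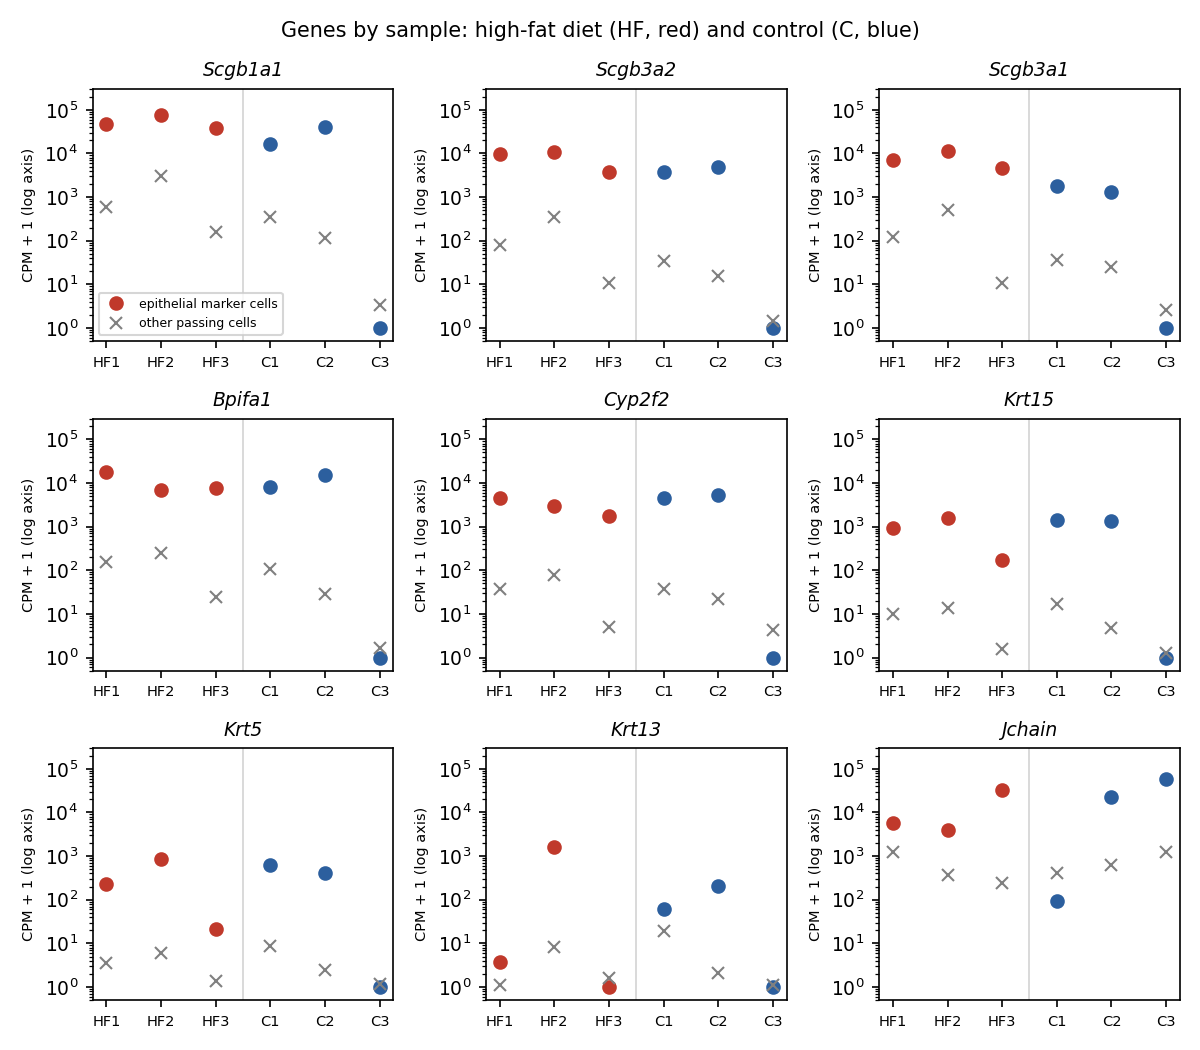
Levels of 9 genes by sample (CPM + 1, log axis) in the epithelial marker cells (filled points, high-fat diet in red and control in blue) and in all other passing cells (grey crosses). Scgb3a1 in the high-fat diet samples lies between 4556 and 11203 CPM, above 1781 and 1291 CPM in controls 1 and 2, and the 2 cells of control 3 hold none of the genes shown except Jchain.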

How the data were processed

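Per the labels, aortas were digested with 0.2% collagenase for 30 min at 37 °C, strained at 40 μm and loaded for droplet capture of 3′ tags. The authors deposited UMI counts for 27998 genes per cell; Cell Ranger 3.0 and mm10 are named in the submitters' processing notes, while cell calling and annotation are not given in the sources used here. Free RNA was not removed. Coordinates came from GENCODE vM21, of the same build.

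The 62838 cells were filtered as in the text and doublets (Scrublet score above 0.25, 2.32% of passing cells) were kept. Epithelial marker cells were clustered with Leiden (scanpy 1.11.5, igraph 0.11.9, 1500 variable genes, 10 principal components, 15 neighbours, resolution 0.5). The members, gene lists and clusters were chosen with earlier results of these data known.

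Raw counts were summed per sample and tested with edgeR 4.0.16 (TMM, filterByExpr, robust quasi-likelihood, Benjamini-Hochberg), on sums of at least 10 cells. Shares were compared by exact permutation. Named genes were the 3 markers, the 30 with the highest log2 ratio (pseudocount-free CPM, in at least 10% of cells and 2 samples, without haemoglobin, Xist, Y-linked and unnamed genes), up to 4 of the most often detected of a list, and those leading clusters; others were chosen after their values were seen. Some genes that this rule names are not reported here. Cluster leaders were ranked with 10 CPM added. Alternatives were DESeq2 1.42.0, other size factors, filters, selection rules, single wells and each sample left out. Software was Python 3.11.15 and R 4.3.3.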

Additional observations from a re-analysis of the deposited data

How the results depend on the processing

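Under all 19 alternatives the difference in the share of epithelial marker cells stayed positive, from 0.0804 to 0.260 percentage points (exact permutation p from 0.2 to 0.6), and so did that of cells with epithelial list genes, from 0.0306 points after thinning to 0.227 points in well 2 alone (p from 0.2 to 0.7). Leaving out each sample in turn gave 0.0804 to 0.234 points for all epithelial marker cells and 0.0464 to 0.205 points for those with list genes. The count of called genes, 0 by edgeR, was 1 with DESeq2 (Scgb3a1) and 14 with no filter on low counts. Of these 14, 8 were higher on the high-fat diet: Scgb3a1, Muc5b, Tff2, Alyref, Birc5, Crip1, Fabp5 and Hsp90aa1. The 6 lower were Asgr1, BC048546, Grp, Per3, Slc5a5 and Zcwpw1. The count was 2 (Scgb3a1 and Nppa) among cells with epithelial list genes and also 2 without the cells of cluster 5. In both, high-fat diet 3 fell under 10 cells and 2 sums stood against 2 (as with the mitochondrial limit of 10%). In the sums of all epithelial marker cells Nppa had a log2 fold change of 0.11 (SE 1.69). It stood there at 288, 132 and 0 normalised CPM in high-fat diet samples 1, 2 and 3. Controls 1 and 2 stood at 9.17 and 297 normalised CPM, so the groups overlapped. Nppa belongs to a list of 7 cardiomyocyte genes. In the other passing cells this list summed to 1279 and 1042 CPM in high-fat diet 1 and 2, and to 682 and 364 CPM in controls 1 and 2. Its part in the call of Nppa was not tested. Leaving out 1 sample gave 0 to 6 genes: 6 without control 1, when a lone control sum was assumed to vary like the others, and 1 (Scgb3a1) without high-fat diet 3. Other size factors, doublets left out, a mitochondrial limit of 10% and all 6 sums gave 0. The cause of these changes was not tested. With the replicate number as a block the differences were 0.142 and 0.111 points (exact p = 0.25 each, the smallest such a pairing allows) and 0 genes were called. Correlations of same-numbered samples' deviations were -0.306, -0.132 and 0.257. The highest correlation across diets was 0.547, between control 1 and high-fat diet 2. Such values cannot show whether samples were paired by design. Leaving out cluster 5 and using all 6 sums were chosen after seeing the data. Depth limits these results: 122 cells hold 1312187 UMIs.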

Other observations

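Cells that the selection left out hold further epithelial transcripts. With at least 2 UMIs of Epcam and Cdh1 but a transcript of Ptprc or Pecam1, 99 cells were set aside, 23, 26 and 9 in high-fat diet samples 1, 2 and 3 and 12, 18 and 11 in control samples 1, 2 and 3. Of these, 45 held at least 2 genes of the epithelial list: 34 of 47 cells with Pecam1 and 18 of 67 with Ptprc. Their median depth was 10745 UMIs, and 4 had a doublet score above 0.25.

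Ciliated genes were found mostly outside the selection. Of 26 passing cells with at least 3 of 9 ciliated genes, 9 were epithelial marker cells, 7 had no UMI of Epcam or Cdh1 and 10 held a transcript of Ptprc or Pecam1. They numbered 7, 5 and 4 in high-fat diet samples 1, 2 and 3 and 5, 5 and 0 in control samples 1, 2 and 3.

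Epcam was also frequent in cells with antibody secretion genes. Of 253 passing cells with at least 10 UMIs of Jchain and 2 of Mzb1, Derl3 and Tnfrsf17, 62 held Epcam (24.5%, at 56.9 CPM), 1 held Cdh1 and 15 held at least 2 genes of the epithelial list. Epcam-positive cells numbered 22 of 82, 5 of 18 and 6 of 22 in high-fat diet samples 1, 2 and 3, and 4 of 14, 11 of 56 and 14 of 61 in control samples 1, 2 and 3. In these cells 133 had no Ptprc UMI, and 9 were among the epithelial marker cells, all in cluster 5.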
